A study of Schizosaccharomyces pombe with 4 samples.

Results

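Cytoplasmic dynein is a microtubule motor that walks towards the minus ends of microtubules. Its heavy chain holds the ATPase motor, its intermediate chain links the motor to dynactin, and its light chains bind the intermediate chain and are also known from complexes other than the motor. Dynactin is the activator that couples dynein to its cargo, and its backbone is a short filament of centractin, an actin-related protein. In fission yeast these proteins are best known from meiosis, when dynein pulls the nucleus back and forth between the cell ends and so helps homologous chromosomes to pair.

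The dynein, dynactin and nuclear movement genes were followed here in Schizosaccharomyces pombe by 8 array features at 7 loci, of 4997 features on the array. The features were those whose array description holds dynein (4 features), centractin (1 feature) or ssm4 (1 feature), while dynactin is in the description of 0 features. A pair of features chosen by their identifiers was added, a coiled-coil protein whose description likens it to a nuclear migration protein, and a WD repeat protein that shares its start with the dynein intermediate chain. The choice was made with the values of the same comparison known, so the values of these 8 features are a description and carry no test.

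The deletion strain, labelled SP744, lacks red2, and the wild-type strain is labelled FY12806. Both grew logarithmically at 30 °C in rich medium with yeast extract, glucose and adenine, per the labels; the share of cells in mating or meiosis was not tested. Each group had 2 arrays, 4 in all, hybridised with Cy3-labelled total RNA, and the labels do not tie a group's arrays to separate cultures, so their spread may be technical and p-values measure only that spread. For replicate 2 of the deletion group the description gives red3 where its title and strain give red2, and red2 itself was not tied to an array feature here. In total RNA of a culture, a change in every cell and a change in some of the cells cannot be told apart.

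Values below are log2 intensities, averaged over the 2 blocks of values that each feature has on an array, and differences are log2 of deletion over wild type with limma's standard error (SE). Coordinates are printed as deposited, without a named build. The median intensity of an array lay between 22141.0 and 22158.1 in the deletion group and between 21231.7 and 21304.1 in wild type. Arrays correlated across features with r = 0.9964 in the deletion group, 0.9975 in wild type and 0.9338 to 0.9447 between groups, and features are not independent replicates. The column headers carry one array number for the deletion arrays and another for the wild-type arrays, so whatever that number marks and the genotype cannot be told apart.

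The motor, its intermediate chain, both dynactin features and the nuclear migration-like protein stood higher in cells without red2, while the light chains did not. Of the 8 features, 6 at 5 loci were at least 2-fold higher in the deletion without overlap between the groups, which 2.72% of all features were. One feature, 1 of the light chains, was at least 2-fold lower, as 2.54% of all features were. By limma's adjusted p under 0.05 over all features, 6 were higher (34.0% of all features) and 1 was lower (29.8% of all features), and nothing is read from these counts because the choice of the features used the same contrast. The median difference of the 8 features was 2.16, against 0.01 over all 4997.

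The dynein heavy chain, the motor subunit itself, lies on chromosome I (4583367 to 4589037). It stood at 11.94 and 11.96 in the deletion arrays, against 9.59 and 9.72 in the wild-type arrays. The groups lay 2.22 apart at their nearest arrays, and the SD within a group was 0.01 in the deletion and 0.09 in wild type. The difference was 2.30 ± 0.06 (SE, 2 arrays per group), a 4.92-fold higher level, and ranked 15 among the 4997 features from the highest down.

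The intermediate chain, which ties the motor to dynactin, was covered by both features of 1 locus on chromosome II. The feature described as cytoplasmic dynein intermediate chain (878367 to 880087) stood at 10.88 and 10.98 in the deletion arrays, against 8.66 and 9.01 in wild type. The wild-type arrays were the more spread of the groups, and the nearest arrays of the groups were 1.87 apart. The difference was 2.09 ± 0.12, or 4.27-fold, rank 24 from the highest.

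The WD repeat feature (878367 to 879272) lies wholly inside the intermediate chain feature and covers 52.6% of its span. It stood at 12.17 and 12.05 in the deletion arrays, against 9.51 and 9.58 in wild type, and the groups did not overlap. Its difference of 2.56 ± 0.06, or 5.91-fold, ranked 10 from the highest. That is 0.47 more than the difference of the longer feature. Since they share sequence and source, the features count as 1 locus and do not support each other as separate genes.

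The feature named ssm4 encodes the fission yeast counterpart of the large dynactin subunit that binds microtubules, and lies on chromosome I (4495875 to 4497887). It stood at 12.30 and 12.32 in the deletion arrays, against 10.09 and 10.06 in wild type. Both groups were tight, with an SD of 0.02 in each, and the nearest arrays of the groups were 2.21 apart. Its difference of 2.23 ± 0.05 ranked 17 from the highest.

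Centractin, the actin-related protein of the dynactin filament (chromosome II, 4043015 to 4044305), stood at 13.22 and 13.32 in the deletion arrays, against 11.54 and 11.59 in wild type. This was the smallest difference among the 6 higher features, at 1.71 ± 0.06 or 3.26-fold, rank 38 from the highest. The groups were still 1.63 apart at their nearest arrays.

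The coiled-coil protein similar to a nuclear migration protein (chromosome II, 817773 to 820679) showed the largest difference of the 8. In budding yeast, a nuclear migration protein anchors dynein at the cell cortex; the array text does not say which protein the similarity was to. The feature stood at 13.52 and 13.13 in the deletion arrays, against 9.30 and 9.15 in wild type. Its difference of 4.10 ± 0.13 was 17.2-fold and ranked 2 among all features, with 3.83 between the nearest arrays of the groups. The deletion arrays differed from each other by more than for the other 7 features, with an SD of 0.27.

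The light chains went another way. The feature described as dynein light chain (chromosome I, 3883354 to 3883850) stood at 13.21 and 13.27 in the deletion arrays, against 13.16 and 13.20 in wild type. The groups came within 0.02 of each other, and the difference was 0.06 ± 0.05. The feature described as dynein light chain-like (chromosome I, 2780124 to 2780685) stood at 12.67 and 12.69 in the deletion arrays, against 13.68 and 13.81 in wild type. Here the deletion arrays were the low ones, with a difference of -1.06 ± 0.06, a level 2.09-fold higher in wild type. Without wild-type replicate 2 the difference fell just short of 2-fold, and the count of at least 2-fold lower members was then 0.

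**Figure D1:**
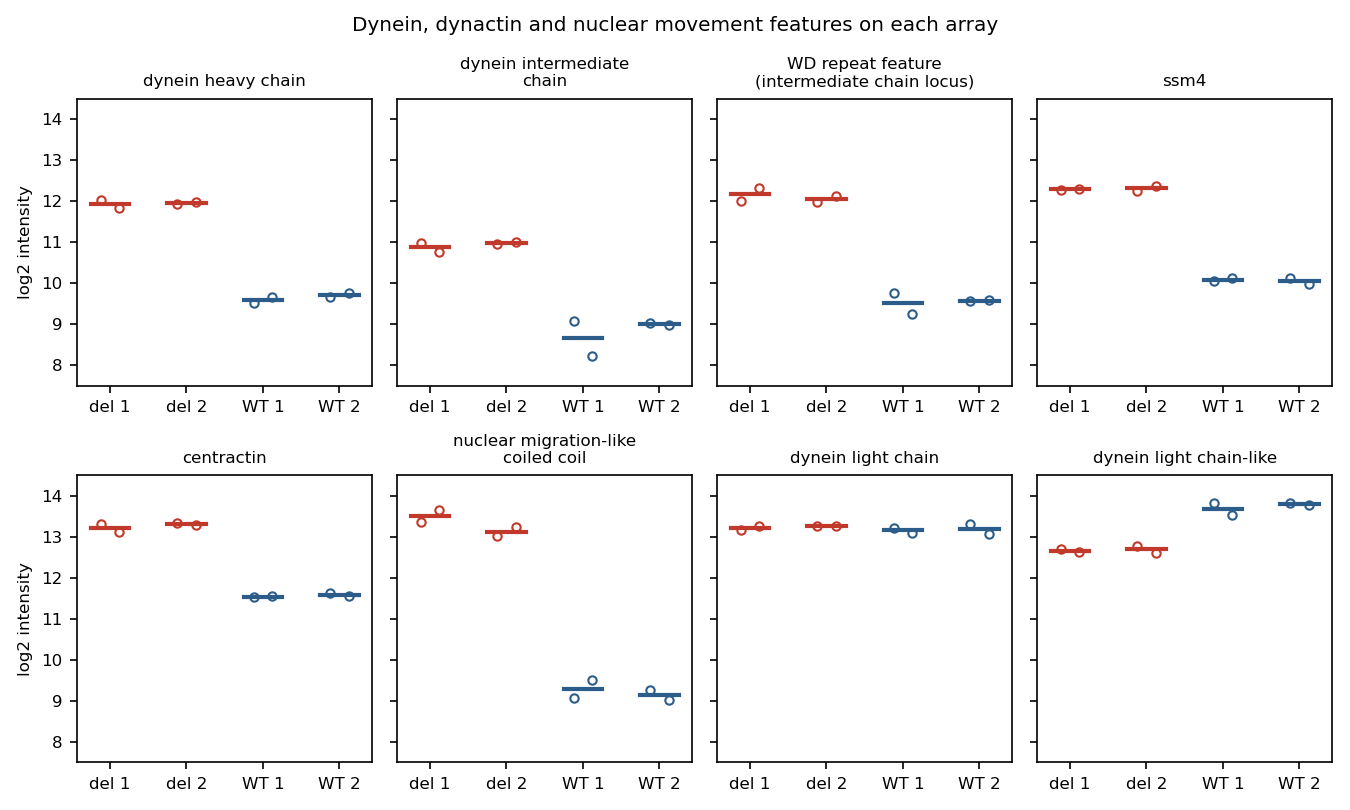
Log2 intensity of the 8 features on each array, with the deletion arrays (del, red) left of the wild-type arrays (WT, blue). Open circles are the 2 blocks of an array and bars are their mean; 6 features sit higher on both deletion arrays, the dynein light chain is level, and the light chain-like feature is lower.

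The blocks allow a closer look at each difference, since a deletion array and the wild-type array of the same replicate number give 1 difference per block, or 4 per feature. The labels and headers do not say what a block is. The 4 differences ran from 2.17 to 2.53 for the heavy chain and from 2.13 to 2.39 for ssm4. They ran from 1.58 to 1.78 for centractin, the narrowest of the 6 higher features, and from 3.74 to 4.30 for the nuclear migration-like feature. For each of these features all 4 values lay above 0. The 4 values come from the same arrays whose contrast was known at the choice, so they are not separate support.

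The features of the intermediate chain locus were the least even. The 4 differences ran from 1.90 to 2.53 for the intermediate chain and from 2.26 to 3.06 for the WD repeat feature, so their ranges overlap although their means are 0.47 apart. In both, the highest value came from the second block of replicate 1. On wild-type replicate 1 the blocks differed by 0.86 for the intermediate chain and by 0.50 for the WD repeat feature, where the median over all features was 0.09. On wild-type replicate 2 the blocks differed by 0.05 and 0.01.

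For the light chain-like feature the 4 differences lay between -1.17 and -0.89, all below 0. For the dynein light chain they were -0.06 in both replicates by the first block, and 0.16 and 0.20 by the second. The sign for the dynein light chain therefore turned with the block.

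**Figure D2:**
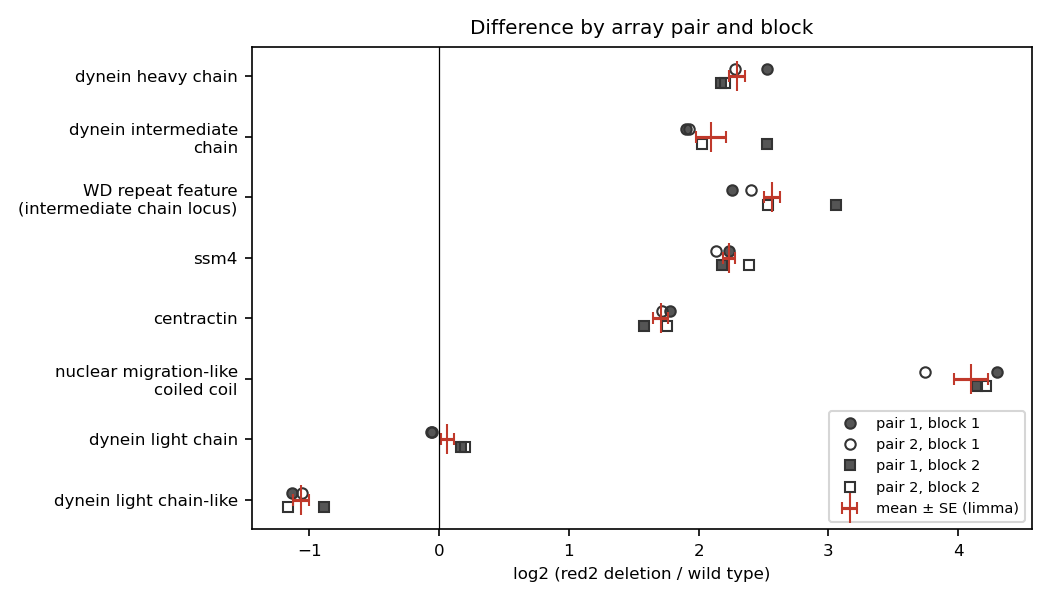
Log2 of deletion over wild type for each feature by replicate pair (filled, replicate 1; open, replicate 2) and block (circles, first; squares, second), with the mean and limma's SE in red. The 6 higher features, chosen with this contrast known, have all 4 values above 0, the lowest of them 1.58. The dynein light chain lies on both sides of 0.

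Fold change on these arrays moved with feature length (Spearman rho = 0.445 across the 4997 features, which are not independent replicates and share the arrays), so the span of each feature stands beside its value. The heavy chain feature spans 5671 bp, the nuclear migration-like feature 2907 bp and ssm4 2013 bp, against a median of 1194 bp over all features. The light chain features span 497 bp and 562 bp. The trend at these lengths was 0.34 for the heavy chain, 0.31 for the nuclear migration-like feature and 0.22 for ssm4. It was -0.26 for the dynein light chain and -0.24 for the light chain-like feature.

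With the trend removed, the differences of the higher features stood at 1.96 for the heavy chain, 1.93 for the intermediate chain and 2.67 for the WD repeat feature. They stood at 2.02 for ssm4, 1.62 for centractin and 3.79 for the nuclear migration-like feature, so all 6 were still at least 2-fold. The light chain-like feature was then at -0.82, which is under 2-fold. The dynein light chain moved to 0.32, and 7 of the 8 features were then called higher by limma, beside 1427 of all 4997 features. With the second block alone the count was also 7, beside 1519 of all 4997. All 8 features were among the 25% of features with the lowest mean intensity, so 0 of 8 passed a filter that leaves those out. Over 12 alternatives the range for the nuclear migration-like feature was 3.79 to 4.29, and that for ssm4 was 2.02 to 2.28.

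**Figure D3:**
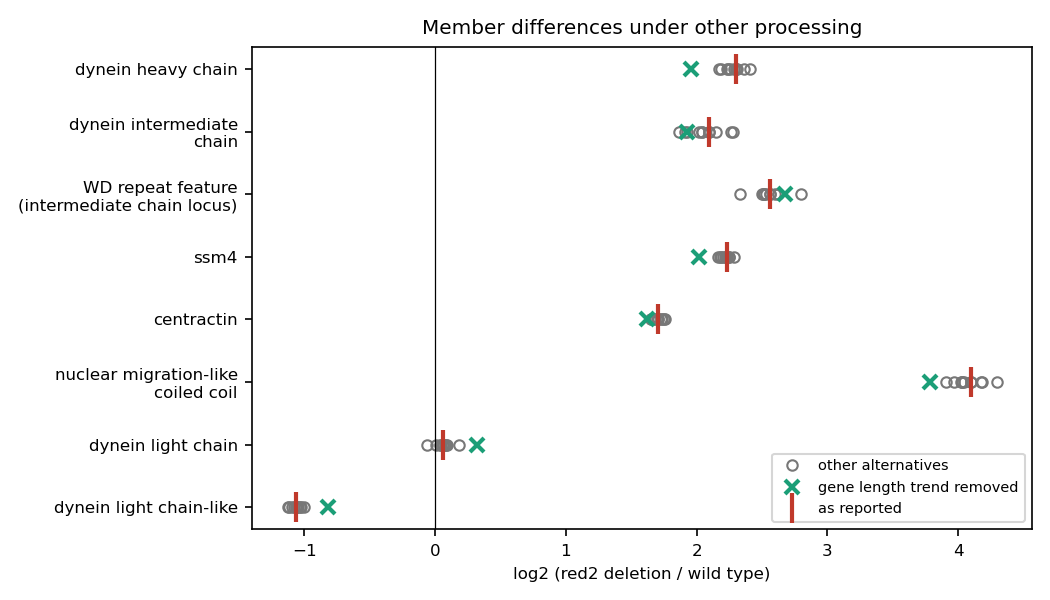
Log2 of deletion over wild type for each feature as reported (red bars), with the gene length trend removed (green crosses) and under the other alternatives (open circles). With the length trend removed the heavy chain stood at 1.96, the dynein light chain at 0.32 and the light chain-like feature at -0.82, and the higher features stayed at least 2-fold under those shown.

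Apart from the WD repeat feature, chosen for its shared start, position was not used to choose the features, and neither were the values of their neighbours. The nuclear migration-like feature and the intermediate chain lie 57.7 kb apart on chromosome II, with 20 array features between them. On chromosome I, ssm4 and the heavy chain lie 85.5 kb apart, with 34 array features between them. The nearest feature on each side of each of the 7 loci gave 14 neighbours. Among them 4 rose, 5 fell and the other 5 were not called (limma, adjusted p under 0.05 over all features), beside 34.0% and 29.8% of all features. Their differences ran from -0.59 to 0.50 with a median of 0.01. At least 2-fold higher without overlap were 0 of the 14, beside 2.72% of all features, so few would be looked for among 14.

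Both neighbours of ssm4 were close to level. A putative peroxiredoxin 626 bp before it stood at 0.04 ± 0.06 (limma adjusted p = 0.608), and the tpr1 protein gene 448 bp after it at 0.04 ± 0.05 (adjusted p = 0.561). Once the trend with length was taken out, the peroxiredoxin passed as higher (0.29, limma adjusted p = 0.00461) and the tpr1 gene as lower (-0.28, 0.00393). Next to the heavy chain, a probable RNA helicase 265 bp before it rose by 0.49 ± 0.05 (limma adjusted p = 0.000428), or by 0.24 on the scale without that trend. The feature 7910 bp after the heavy chain stood at -0.01 ± 0.07 (adjusted p = 0.896).

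Around the nuclear migration-like feature, a hypothetical protein 941 bp before it rose by 0.50 ± 0.05 (limma adjusted p = 0.000423) and another 960 bp after it fell by 0.42 ± 0.05 (adjusted p = 0.00101), or by 0.24 without the trend. Before the intermediate chain locus, at 276 bp, a gene of the alpha 1 subunit of the proteasome fell by 0.33 ± 0.06 (limma adjusted p = 0.00328), a call lost once the length trend was taken out (-0.15, adjusted p = 0.0504). On the other side, at 6321 bp, a conserved hypothetical protein rose by 0.42 ± 0.05 (adjusted p = 0.000725), or by 0.64 without the trend. The gene nearest to centractin, a putative ribose methyltransferase at 121 bp, fell by 0.59 ± 0.08 (limma adjusted p = 0.00166). The hypothetical protein 1409 bp before centractin fell by 0.37 ± 0.06 (adjusted p = 0.00184), a call lost once the length trend was taken out (-0.12, adjusted p = 0.152). Of the 4 neighbours of the light chain loci, a hypothetical protein 1804 bp before the light chain-like feature rose by 0.48 ± 0.08 (limma adjusted p = 0.00234) and another 1455 bp after the dynein light chain fell by 0.42 ± 0.05 (adjusted p = 0.000625). The other neighbours there did not pass.

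A wider window, chosen after the values were seen, took 3 features on each side of each locus. Of these 42 features 12 rose and 16 fell (limma), beside 34.0% and 29.8% of all features, and their differences ran from -1.37 to 0.98. At least 2-fold higher features without overlap numbered 0 in that window, and 2 were at least 2-fold lower, beside 2.72% and 2.54% of all features.

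**Figure D4:**
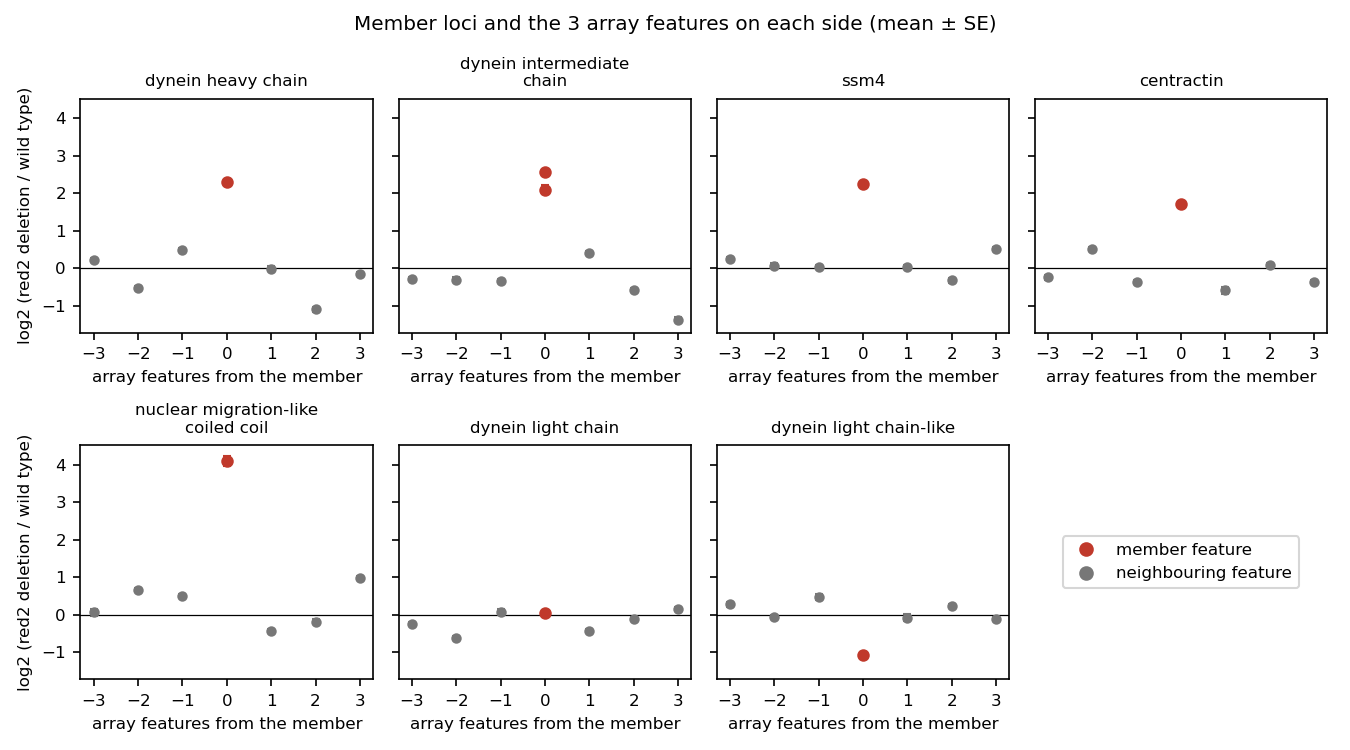
Log2 of deletion over wild type (mean ± limma's SE) for the features of each locus (red, position 0) and the 3 array features on each side (grey), counted in array features. The neighbours lie between -1.37 and 0.98. The higher features, which were chosen with this contrast known, lie between 1.71 and 4.10, so the gap between these ranges is no test.

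Other microtubule and spindle pole genes differed by less than the 6 higher features, which were chosen with this contrast known. A list of 42 features at 39 loci, none of them among the 8, was drawn from words in the descriptions and from symbols of horsetail movement, kinesin and microtubule genes, of which 7 of 36 symbols could be matched. In it 21 features rose, 6 fell and 15 did not pass (limma, adjusted p under 0.05 over all features), beside 34.0% and 29.8% of all features. The median was 0.17, against 0.01 over all features. In the list 1 feature was at least 2-fold higher without overlap and 1 at least 2-fold lower, beside 2.72% and 2.54% of all features. With arrays centred on their median 13 rose, beside 1478 of all 4997 features. With the length trend removed 14 rose and 13 fell with a median of 0.02, beside 1427 and 1761 of all 4997 features. The balance of the list, like that of all features, therefore depends on the scaling.

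Kinesins are the other family of microtubule motors, and most of its members walk towards the plus ends. Of 11 kinesin features at 9 loci, 8 rose, 0 fell and 3 did not pass (limma), beside 34.0% higher and 29.8% lower over all features, with a median of 0.41. At an unadjusted limma p under 0.05, 9 were higher and 1 was lower. The share of all features at that threshold is not given here, so nothing is read from these counts. The count of 8 went to 6 higher and 1 lower with the length trend removed, beside 1427 and 1761 of all 4997 features. The kinesin median then went to 0.19, against -0.04 over all features. The highest was a kinesin-like motor protein on chromosome II (2965769 to 2966831), which rose 2.04-fold, by 1.03 ± 0.07 (limma adjusted p = 0.000126). It overlaps another kinesin feature that rose by 0.20 ± 0.06 (adjusted p = 0.0234), so features of 1 locus gave unlike values here as well. That smaller call was lost without wild-type replicate 1 (limma adjusted p = 0.106), without wild-type replicate 2 (0.083), with arrays centred (0.065), with quantile normalization (0.0643) and with the second block alone (0.113).

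Further kinesin-like features rose by 0.84 ± 0.06 (chromosome II, 452396 to 454790), 0.73 ± 0.06 (chromosome I, 1714157 to 1716655) and 0.71 ± 0.06 (chromosome II, 3852279 to 3854165). A short feature with the same start as the first of these, of the KIP3 subfamily, stood at 0.11 ± 0.06 (limma adjusted p = 0.131), and passed at 0.19 with the trend taken out (0.0365) and at 0.16 without deletion replicate 2 (0.0471). With the length trend removed the 3 longer features stood at 0.57, 0.44 and 0.52. The microtubule and spindle pole body protein p93dis1, known to act at microtubule plus ends and kinetochores, rose by 0.74 ± 0.05 (0.43 with the trend removed). A putative microtubule severing ATPase similar to katanin rose by 0.67 ± 0.07 (0.42 with the trend removed).

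Of 4 features of tubulins, the building blocks of microtubules, 1 rose, 1 fell and 2 did not pass (limma). Over all features 34.0% were higher and 29.8% lower. The gamma chain, which nucleates microtubules at the spindle pole body, rose by 0.51 ± 0.05 (limma adjusted p = 0.000391). The beta chain stood at -0.03 ± 0.05 and the alpha-2 chain at 0.15 ± 0.06, and neither passed (adjusted p = 0.566 and 0.0576). With the length trend taken out the beta chain passed as lower (-0.19, limma adjusted p = 0.0141), and the alpha-2 chain passed as higher with quantile normalization (0.0248), without the dimmest features (0.0386) and with a trend and robust prior (0.00965). The alpha-1 chain fell by 0.19 ± 0.05 (limma adjusted p = 0.0222), or by 0.32 with the length trend taken out. That call was lost without wild-type replicate 1 (0.0938), without wild-type replicate 2 (0.111), without deletion replicate 1 (0.0505) and with the first (0.245) or second (0.0953) block alone.

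Genes of the list that act at the nuclear envelope or at telomeres differed in both directions, kms1 and rap1 lower and sad1 and taz1 higher. The kms1 gene, whose product sits in the nuclear envelope at the spindle pole body and is needed for meiotic nuclear movement, stood at 13.87 and 13.89 in the deletion arrays, against 14.21 and 14.26 in wild type. It fell by 0.35 ± 0.05 (limma adjusted p = 0.00138), or by 0.57 with the length trend taken out. Its partner at the inner membrane, sad1, rose by 0.18 ± 0.05 (adjusted p = 0.0219), or by 0.42 with the trend taken out. The call of sad1 was lost without wild-type replicate 1 (limma adjusted p = 0.108), without wild-type replicate 2 (0.124), with arrays centred (0.0692), with quantile normalization (0.0588) and with the first (0.154) or second (0.0663) block alone. The telomere protein gene rap1, which helps to hold chromosome ends at the spindle pole body in meiosis, fell by 0.50 ± 0.05 (limma adjusted p = 0.000456), or by 0.75 with the length trend taken out. Its partner at telomeres, taz1, rose by 0.20 ± 0.06 (adjusted p = 0.0252), but stood at -0.0113 with the trend taken out (0.869). The call of taz1 was also lost with arrays centred (limma adjusted p = 0.0691), with the first block alone (0.11), without deletion replicate 1 (0.0656) and without wild-type replicate 1 (0.187).

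The lowest features of the list were described as spindle pole body proteins. The feature similar to SPC24 fell by 1.04 ± 0.07, the one similar to nuf2 by 0.70 ± 0.12 and cut12 by 0.58 ± 0.10. Products of the nuf2 and spc24 genes are known today as outer kinetochore proteins. Of 9 spindle pole body features in the list 5 rose, 3 fell and 1 did not pass (limma), beside 34.0% higher and 29.8% lower over all features. With the length trend removed a putative spindle pole body associated protein passed as lower (-0.21, limma adjusted p = 0.009). The calls of Alp4p (-0.10, 0.166) and of a gamma-tubulin interacting protein (chromosome II, 401627 to 403405; 0.15, 0.0504) were then lost, and the other calls stayed.

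**Figure D5:**
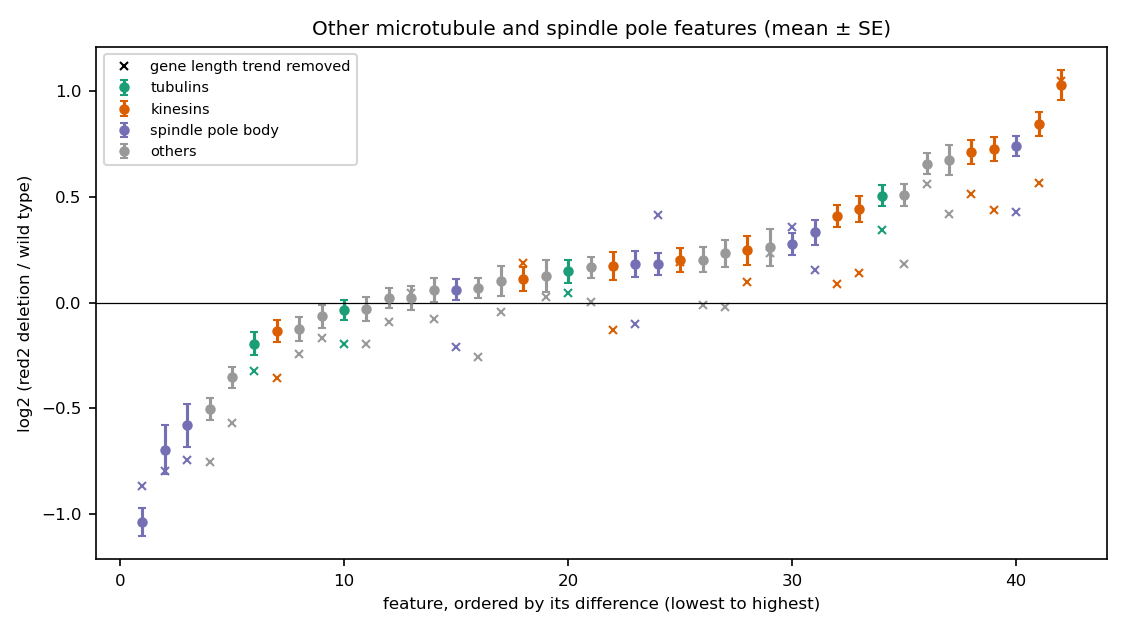
Log2 of deletion over wild type (points, mean ± limma's SE) for the 42 other microtubule and spindle pole features in rising order, coloured by class, with the value after removal of the gene length trend as a cross. The values lie between -1.04 and 1.03, and many crosses lie below their points.

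The features outside the 8 with the most similar pattern were looked for by the distance between the 4 array values, each feature centred on its own mean. The nearest to ssm4 were a gene described as upregulated in meiosis (chromosome I, 3791304 to 3791676), at a distance of 0.06 and with a difference of 2.22, then the protein kinase gene mek1, at 0.07 and 2.18, and a short chain dehydrogenase, at 0.07 and 2.20. For the heavy chain they were an RNA-binding protein gene on chromosome II (distance 0.12, difference 2.38), a hypothetical protein on chromosome I (0.13, 2.22) and the same gene upregulated in meiosis (0.14). The intermediate chain was nearest to a very hypothetical protein (0.21), a sequence orphan (0.22) and mek1 (0.25).

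Among the other features, the WD repeat feature was nearest to a very hypothetical protein (0.15), a hypothetical protein (0.20) and rec11, a meiotic cohesin subunit gene (distance 0.22, difference 2.42). Centractin was nearest to a glycine rich protein (0.09), a putative glucose transporter (0.10) and a longer feature of the gene upregulated in meiosis (0.13). The nuclear migration-like feature had no close match. Its nearest were a hypothetical protein on chromosome II (0.45, difference 3.85), a very hypothetical protein (0.54, 3.69) and a putative GTP cyclohydrolase (0.63, 4.55). These distances rest on 4 arrays and mainly measure the size of the difference.

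The labels do not give the mating type of the strains, so genes of mating type were counted as a list. It mixes genes of the M and P mating types with silencing and switching genes, so its counts and sum cannot show a difference in mating type. Of 15 features 7 rose, 4 fell and 4 did not pass (limma, adjusted p under 0.05 over all features), beside 34.0% higher and 29.8% lower over all features. Their differences ran from M-factor precursor 2 at -0.94 ± 0.15 to clr4, a silencing gene, at 0.60 ± 0.06. The M-specific polypeptide mc stood at -0.59 and M-factor precursor 3 at -0.45. M-factor precursor 1 stood at 0.28 and the M-specific polypeptide mi, a dim feature, at 0.35. The P-factor precursor stood at 0.41, the M-factor receptor at 0.42 and the P-factor receptor, which did not pass, at 0.105. The summed intensity of the list was 139958 and 138309 in the deletion arrays, against 130522 and 126635 in wild type, and 0 features were at 0. The part of mating type in the differences of the dynein and dynactin features was not tested.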

How the data were processed

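The authors deposited intensity values made with RMA, named without a version in the submitters' processing notes, and its steps are not stated. They also deposited a ratio of deletion to wild type beside them, which equalled the quotient of the intensities to within 1e-06 and was not used otherwise. The 9994 lines hold 2 blocks per feature, averaged as log2 values. Levels are linear intensities up to 65027.6, and the number of arrays limits the precision.

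Genotype was fitted over all 4997 features with lmFit and eBayes of limma 3.58.1 under R 4.3.3, two-sided, with Benjamini-Hochberg adjustment and a threshold of 0.05. The fit was tested on simulated data. Symbols came from description words matching RefSeq (ASM294v3) names on the same chromosome, with an offset within 10000 bp of at least 2 matched neighbours; 383 features matched.

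The members and lists were chosen with earlier results of these data known. Named were every member, the 6 features of the microtubule list with the largest change past the threshold in each direction, the nearest neighbours of members at least 2-fold higher, the 3 nearest patterns to each member at least 2-fold higher, and the extremes of the mating type list. Other features of the microtubule and mating type lists and the neighbours of the light chains were named after their values were seen. Alternatives were quantile normalization, centring each array, a filter on the dimmest 25% of features, 32 added before log2, a loess length trend removed (span 0.5), either block alone, a block for the replicate number, leaving out each array, and a trend and robust prior.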

Additional observations from a re-analysis of the deposited data

How the results depend on the processing

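The 6 member features at least 2-fold higher kept that count under every alternative but the removal of the dimmest 25% of features, which left 0 of the 8 to count, 0 called higher and 0 called lower. The count of 1 lower member went to 0 there, with the length trend removed and without wild_type replicate 2. The median difference of the 8 features, 2.16, was 2.11 with 32 added before log2 and with arrays centred on their median, 2.01 with quantile normalization, 1.94 with the length trend removed, 2.05 with the first block alone and 2.23 with the second; with each array left out it ran from 2.08 to 2.24. In the microtubule list 21 rose, against 13 with arrays centred, and 6 fell, against 13 with the length trend removed; with arrays left out 14 to 22 rose and 5 to 8 fell. Over all features 1478 rose with arrays centred and 1761 fell with the length trend removed. In the mating type list 2 rose and 0 fell without the dimmest features, beside 1303 and 1088 of the 3748 features left. That filter also took features out of the list, M-factor precursor 2 and rap1 among them, so the lower counts are partly features removed. The tpr1 neighbour of ssm4 turned to -0.28 and taz1 to -0.0113 with the length trend removed. Arrays with the same replicate number did not deviate together (correlation -0.04). That correlation was taken on processed values, so it cannot show whether the number pairs the arrays. With the number as a block 6 members were higher and 1 lower, as without it. In the microtubule list 21 features then rose and 6 fell, also as without the block. Over all features the block gave 1674 higher and 1466 lower, against 1699 and 1487. Where 1 array of a group was left, its spread was taken from the other group. No call of signal over background was used, so how far the dim wild-type values limit the folds was not tested.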
